A study of Oryctolagus cuniculus with 3 samples.

Results

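Solute carriers are the membrane proteins, named SLC, that move amino acids, nucleosides, metals, ions, sugars, vitamins and other small molecules across the cell surface and across the membranes of organelles. Some couple the solute to a sodium, proton or chloride gradient, some exchange one solute for another, and some work as pairs of a heavy and a light chain. In the arterial wall, smooth muscle cells use them for calcium removal, cell volume and fuel uptake, and macrophages use others to handle the material they engulf. The genes described here are all rabbit rows with an Ensembl identifier and an SLC name, other than the mitochondrial SLC25 family and 9 glucose, lactate, iron and phosphate carriers. Of 223 such rows among 15248 rabbit genes, 139 averaged 1 FPKM or more over the libraries and were kept, and 84 lay below that mean. FPKM, a fragment count divided by gene length and by the library's total, is a level per length, so that levels of different genes can be set beside each other.

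The samples were aortic media, the muscular middle layer of the artery, from male JW/CSK rabbits aged 9 months. There were 3 groups: non-transgenic rabbits given chow, non-transgenic rabbits given high cholesterol diet over 20 weeks, and rabbits transgenic for PGC1-alpha given that diet for the same time. PGC1-alpha is a coactivator of transcription known for its part in mitochondrial biogenesis. The transgene's promoter, and so the cells it is expressed in, is not given in the labels. Each group was 1 library made from the pooled RNA of 5 rabbits, so no spread between animals was measured, no difference below has a test, and every difference is a difference between libraries. The diet comparison and the genotype comparison both use the non-transgenic cholesterol library, and the transgenic library against chow shares a library with each. The chow library was read on lane 3 and the others on lane 2, so diet and lane effects cannot be told apart.

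The mouse Ppargc1a row was listed at 0 FPKM in the chow library, 0 in the cholesterol library and 12.8 in the transgenic library. The libraries' FPKM summed to 943181, 903706 and 824460 in that order. Their absolute depth is unknown, and ratios of low values put the cholesterol and transgenic libraries at 1.29 and 1.25 times the fragments of the chow library. Contractile smooth muscle genes, which define the labelled tissue, summed to 38576 FPKM on chow, 15862 on cholesterol and 22221 in the transgenic library over 18 rows. On cholesterol diet 16 of these rows were at least 2-fold lower than on chow and 1 at least 2-fold higher. The higher row was 1 of 2 rows of TPM1, at 15.8 FPKM on chow and 94.2 on cholesterol, while the other was at 724 and 266 FPKM. Macrophage markers differed the other way, with sums of 104, 5268 and 4567 FPKM. On cholesterol diet, 21 of the 23 macrophage markers with a mean of at least 1 FPKM were at least 2-fold higher than on chow and 0 were at least 2-fold lower, and ITGAX, MARCO, MMP12 and SPI1 were listed at 0 on chow. Endothelial markers summed to 148, 198 and 241 FPKM. Adventitial fibroblast and adipocyte markers summed to 835, 572 and 826 FPKM. Without PI16, which was listed at 0 on cholesterol, those sums were 424, 572 and 528 FPKM. The sum without PI16 was higher on the diet mainly through LUM, at 85.1 FPKM on chow and 370 on cholesterol. Of the 7 markers, LUM and ADIPOQ were at least 2-fold higher and PI16 and DPT at least 2-fold lower. DCN, FBLN1 and PDGFRA were lower but short of 2-fold, and the list's median was -0.43 in log2(FPKM + 1). Schwann cell and nerve markers summed to 45.6, 7.33 and 18.1 FPKM. Of 5 erythroid markers, 2 were found and summed to 1.14, 1.44 and 3.35 FPKM. In bulk RNA, fewer cells of a type and less RNA per cell cannot be told apart, and the part of these shifts in the carrier differences was not tested.

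On cholesterol diet the carriers as a group were higher than on chow. Of the 139 rows, 57 (41.0%) were at least 2-fold higher and 5 (3.60%) at least 2-fold lower, where 2-fold means a difference of 1 in log2(FPKM + 1). Over all 11597 rabbit genes that averaged 1 FPKM or more, 15.9% were at least 2-fold higher and 6.99% at least 2-fold lower. Each diet count of a class, family or list below, at this setting, is to be set beside those shares. The median difference was 0.66 on the log2(FPKM + 1) scale for the carriers and 0.02 for all these genes. The filter on the mean favours rows that are high in some library: 20 kept rows were below 1 FPKM on chow, and 18 of those were among the 57. Among rows of at least 1 FPKM on chow, 39 of 119 carriers were at least 2-fold higher, beside 10.8% of all such genes. With no filter, the count was 57 of 223 carriers (25.6%, median 0.24) beside 12.8% of all genes. From a mean of 5 FPKM upward it was 38 of 94 carriers beside 14.2%. With a pseudocount of 5 in place of 1, which shrinks the differences of low genes, 29 of 139 were past 2-fold upward and 2 downward, beside 9.64% and 3.56% of all genes. The summed level of the 139 rows was 1784 FPKM on chow, 3088 on cholesterol and 2706 in the transgenic library, and the median level 5.22, 10.2 and 9.94 FPKM.

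**Figure D1:**
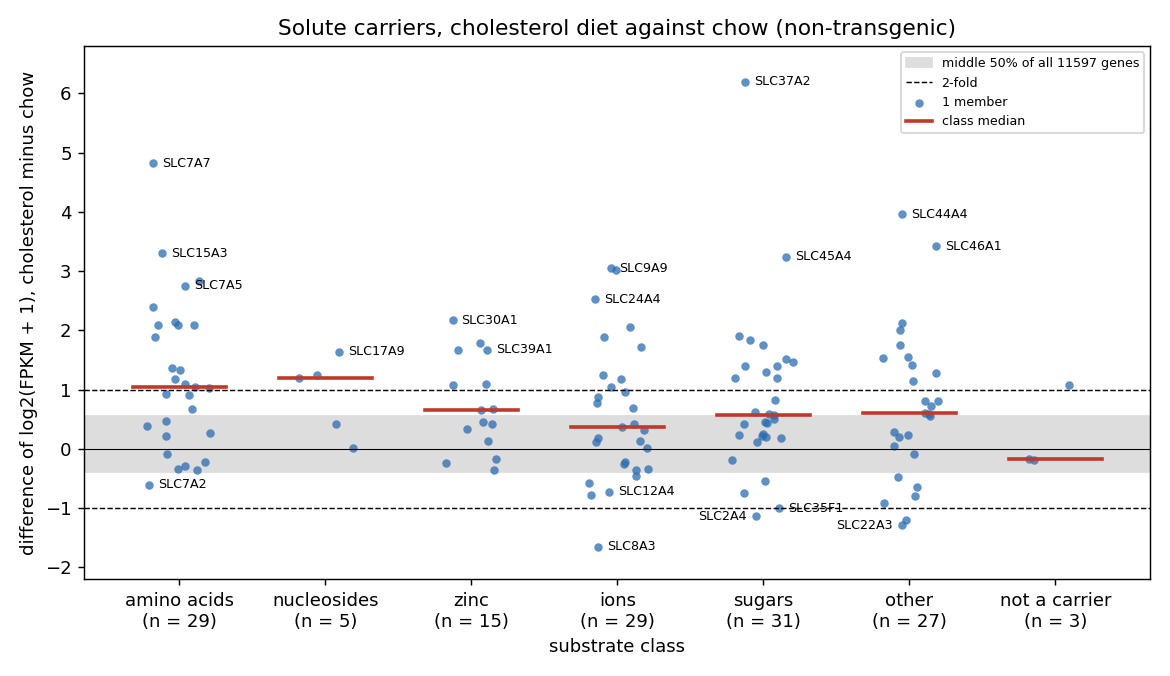
Difference in log2(FPKM + 1) between the non-transgenic cholesterol and chow libraries (vertical axis) for each of the 139 rows, by substrate class (horizontal axis). Each point is 1 gene, red bars are class medians, the grey band holds the middle of all 11597 genes and dashed lines mark 2-fold. Among these kept rows the medians of amino acid carriers (1.05) and nucleoside carriers (1.20) lie above the upper dashed line and that of ion carriers (0.37) inside the grey band, while with no filter on low values they were 0.26, 0.42 and 0.11.

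Amino acid and peptide carriers were the class with the most rows past 2-fold on cholesterol diet: 16 of 29 were higher and 0 lower, with a median difference of 1.05 on the log2(FPKM + 1) scale. That median was 0.26 with no filter on low values, and with a pseudocount of 5 it was 0.62, with 9 past 2-fold. Their summed level was 464 FPKM on chow, 892 on cholesterol and 790 in the transgenic library. The most abundant by mean was SLC38A10, a little characterised member of a neutral amino acid carrier family, at 199 FPKM on chow, 171 on cholesterol and 199 in the transgenic library. Its row covers only positions 1126 to 3665 of a short unplaced contig. It ranked 1, 2 and 1 among the 139 rows by level in the 3 libraries.

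The heteromeric carriers pair a light chain of the SLC7 family with the heavy chain SLC3A2 (4F2hc), which brings the light chain to the cell surface. SLC3A2 itself stood at 38.7 FPKM on chow, 146 on cholesterol and 94.7 in the transgenic library, a diet difference of 1.88 in log2(FPKM + 1). Its light chain SLC7A7 (y+LAT1), an exchanger of arginine and lysine for neutral amino acids on chromosome 17 from 43017035 to 43049747 (OryCun2.0), stood at 0.545 FPKM on chow, 42.8 on cholesterol and 32.2 in the transgenic library. That diet difference was 4.82 in log2(FPKM + 1), and its rank by level among the carriers went from 125 on chow to 15 on cholesterol. SLC7A5 (LAT1), the light chain for large neutral amino acids such as leucine, stood at 4.18, 33.9 and 18.1 FPKM in the same order, a diet difference of 2.75. SLC7A8 (LAT2) stood at 5.81, 27.9 and 30.0 FPKM, a diet difference of 2.08. SLC7A6 (y+LAT2), close in function to SLC7A7, stayed under 2-fold at 2.13, 3.09 and 2.22 FPKM. The other heavy chain, SLC3A1, whose mutation causes cystinuria, overlaps another listed gene and stood at 3.25, 2.49 and 3.91 FPKM. Among the heteromeric carriers, then, the cholesterol library exceeded chow past 2-fold for 1 of 2 heavy chains and 3 of 4 light chains.

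Carriers of peptides and histidine were all past 2-fold. SLC15A3, a lysosomal carrier of histidine and small peptides on chromosome 1 from 193550535 to 193575083, stood at 12.2 FPKM on chow, 129 on cholesterol and 116 in the transgenic library, a diet difference of 3.30 in log2(FPKM + 1). Its locus overlaps TMEM132A, and reads of the pair may not be separable. SLC15A4, its lysosomal paralogue, stood at 4.48, 10.6 and 8.50 FPKM, a diet difference of 1.09. SLC15A2 (PEPT2), which takes up small peptides at the cell surface, stood at 0.324, 4.86 and 8.47 FPKM, a diet difference of 2.15. SLC15A3 alone of the 3 was above 10 FPKM on chow.

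The SLC1 family takes up acidic and small neutral amino acids. SLC1A2, the main glutamate carrier of astrocytes, was the only kept row listed at 0 in a library: it was at 0 FPKM on chow, 6.15 on cholesterol and 4.59 in the transgenic library. SLC1A3, also a glutamate and aspartate carrier, stood at 0.419, 2.23 and 0.499 FPKM, so that only the cholesterol library was above 1 FPKM. SLC1A5 (ASCT2), which takes up glutamine, stood at 1.07, 4.32 and 1.93 FPKM, a diet difference of 1.36. SLC1A4 (ASCT1), a carrier of serine and alanine, stood at 16.3, 31.7 and 20.3 FPKM, a diet difference of 0.91, short of 2-fold.

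The sodium-coupled neutral amino acid carriers of the SLC38 family were mostly under 2-fold on cholesterol diet. Of 8, 2 (25%) were higher and 0 lower, beside 15.9% and 6.99% of all genes. SLC38A6 stood at 5.10, 30.9 and 23.4 FPKM, and SLC38A7, a lysosomal glutamine carrier, at 2.54, 14.1 and 9.94 FPKM. SLC38A9, the lysosomal arginine sensor upstream of mTORC1, stood at 2.47, 4.50 and 4.75 FPKM. SLC38A2, the widely expressed carrier that responds to amino acid starvation, was abundant and nearly level at 60.3, 69.8 and 72.0 FPKM. SLC38A3 stood at 3.51, 2.58 and 1.10 FPKM, lowest in the transgenic library.

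The cationic amino acid carriers of the SLC7 family that need no heavy chain went apart. SLC7A1 (CAT1), the general arginine carrier, stood at 1.80, 4.80 and 2.02 FPKM, a diet difference of 1.05 in log2(FPKM + 1). SLC7A2 (CAT2), which supplies arginine to nitric oxide synthase in mouse macrophages, stood at 17.0, 10.9 and 11.4 FPKM, a difference of -0.60 and the lowest diet value among the amino acid carriers. Of the remaining members of the class, SLC43A2 (LAT4) was 2.09 higher in log2(FPKM + 1) on the diet, the proton-coupled lysosomal carrier SLC36A1 1.33 and the glycine carrier SLC6A9 (GlyT1) 1.02. The taurine carrier SLC6A6 stood at 24.5, 34.2 and 35.4 FPKM, a diet difference of 0.47, and SLC43A1 (LAT3) at 6.95, 5.19 and 9.30 FPKM.

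In a list of 20 genes of amino acid stress and sensing, 7 (35%) were at least 2-fold higher on cholesterol diet and 0 lower. Over all genes the shares were 15.9% and 6.99%. The list's median was 0.62 in log2(FPKM + 1). Its largest difference was that of SESN2, a leucine sensor that restrains mTORC1, at 0.973 FPKM on chow, 13.4 on cholesterol and 5.51 in the transgenic library. SESN2, ARG2 (0.399 FPKM) and TRIB3 (0.290) were below 1 FPKM on chow and passed the filter on the mean only through the cholesterol diet libraries. The rest of the 7, LAMTOR1, RRAGD, GLUL and ATF3, were above 1 FPKM on chow, where the share higher over all such genes was 10.8%.

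Zinc carriers, the 15 members of the SLC30 and SLC39 families kept, were the class with the single most abundant carrier of the cholesterol library. Of the 15, 6 were past 2-fold upward on the diet and 0 downward, with a median of 0.66 in log2(FPKM + 1), and the summed level was 291 FPKM on chow, 579 on cholesterol and 461 in the transgenic library. With a pseudocount of 5, 3 were past 2-fold. SLC39 (ZIP) proteins bring zinc into the cytosol, and most SLC30 (ZnT) proteins take it out to the outside or into organelles. SLC39A1 (ZIP1) stood at 76.6 FPKM on chow, 246 on cholesterol and 180 in the transgenic library, a diet difference of 1.67, and ranked 4, 1 and 2 among all 139 rows. SLC39A8 (ZIP8), which also takes up manganese, stood at 0.588, 4.06 and 3.42 FPKM, again a diet difference of 1.67. SLC39A11 stood at 2.62, 11.5 and 9.65 FPKM, and SLC39A13 (ZIP13), which acts in the secretory pathway and is mutated in a form of Ehlers-Danlos syndrome, at 34.8, 74.3 and 62.4 FPKM. The other SLC39 members, SLC39A6, SLC39A7, SLC39A9, SLC39A10 and SLC39A14, stayed within -0.17 and 0.67 of chow.

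On the export side, SLC30A1 (ZnT1), the zinc exporter of the cell surface, had the largest diet difference of the class at 2.17 in log2(FPKM + 1). It stood at 5.19 FPKM on chow, 26.9 on cholesterol and 20.3 in the transgenic library. Its row covers only positions 61352242 to 61353147 of chromosome 16. SLC30A7, which loads zinc into the Golgi, stood at 7.71, 17.7 and 10.5 FPKM, a diet difference of 1.10. SLC30A4, SLC30A5, SLC30A6 and SLC30A9 lay between -0.35 and 0.33. Counted by family, 4 of 9 SLC39 members (44.4%) and 2 of 6 SLC30 members (33.3%) were at least 2-fold higher, beside 15.9% of all genes.

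A list of 8 genes drawn up for zinc buffering and sensing also holds the copper pumps ATP7A and ATP7B and the hypoxia factor HIF1A. Its counts and median are therefore not of zinc genes alone. Of the 8, 4 (50%) were at least 2-fold higher and 1 (12.5%) lower. Over all genes the shares were 15.9% and 6.99%. The list's median was 0.99 in log2(FPKM + 1). The higher ones were S100A8, S100A9 and S100A12, all listed at 0 on chow, and ATP7A. The S100 rows passed the filter on the mean only through the cholesterol diet libraries. MTF1 stayed under 2-fold at 6.61 FPKM on chow, 7.37 on cholesterol and 5.71 in the transgenic library. The gene past 2-fold downward was MT3, a metallothionein that binds zinc and copper, at 248 FPKM on chow and listed at 0 in both cholesterol diet libraries. MT3 was the only metallothionein among the list's rows, and the cause of its 0 values was not tested.

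Nucleoside and nucleotide carriers were few. Of 5, 3 were at least 2-fold higher on cholesterol diet and 0 lower, with a median of 1.20 in log2(FPKM + 1), and their summed level was 90.8 FPKM on chow, 172 on cholesterol and 136 in the transgenic library. The median was 0.42 with no filter and 0.83 without SLC29A3, whose locus overlaps other genes, and with a pseudocount of 5 it was 0.66 with 1 past 2-fold. SLC43A3, a carrier of purine nucleobases, was the most abundant at 41.8, 100 and 71.3 FPKM, a diet difference of 1.25. SLC17A9 (VNUT), which loads ATP into vesicles for release, stood at 0.506, 3.68 and 2.34 FPKM, a diet difference of 1.64. SLC29A3 (ENT3), the lysosomal nucleoside carrier, stood at 2.98, 8.14 and 6.81 FPKM, a diet difference of 1.20. The equilibrative carriers of the cell surface were nearer to chow. SLC29A1 (ENT1), which clears extracellular adenosine, stood at 41.6, 56.0 and 52.0 FPKM, and SLC29A2 (ENT2) at 3.89, 3.96 and 3.21 FPKM.

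Of 17 genes of adenosine and nucleoside handling, 7 (41.2%) were past 2-fold upward on the diet and 1 (5.88%) downward. Over all genes the shares were 15.9% and 6.99%. The list's median was 0.75 in log2(FPKM + 1). The largest difference was that of the thymidine kinase TK1, a gene of dividing cells, listed at 0 FPKM on chow and at 20.5 and 9.06 FPKM in the cholesterol and transgenic libraries. UPP1 (0.356 FPKM), ADORA3 (0.155) and CDA (0.0864), also among the 7, were below 1 FPKM on chow too. These and TK1 passed the filter on the mean only through the cholesterol diet libraries. PNP, SAMHD1 and ADK were above 1 FPKM on chow, where the share higher over all such genes was 10.8%.

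**Figure D2:**
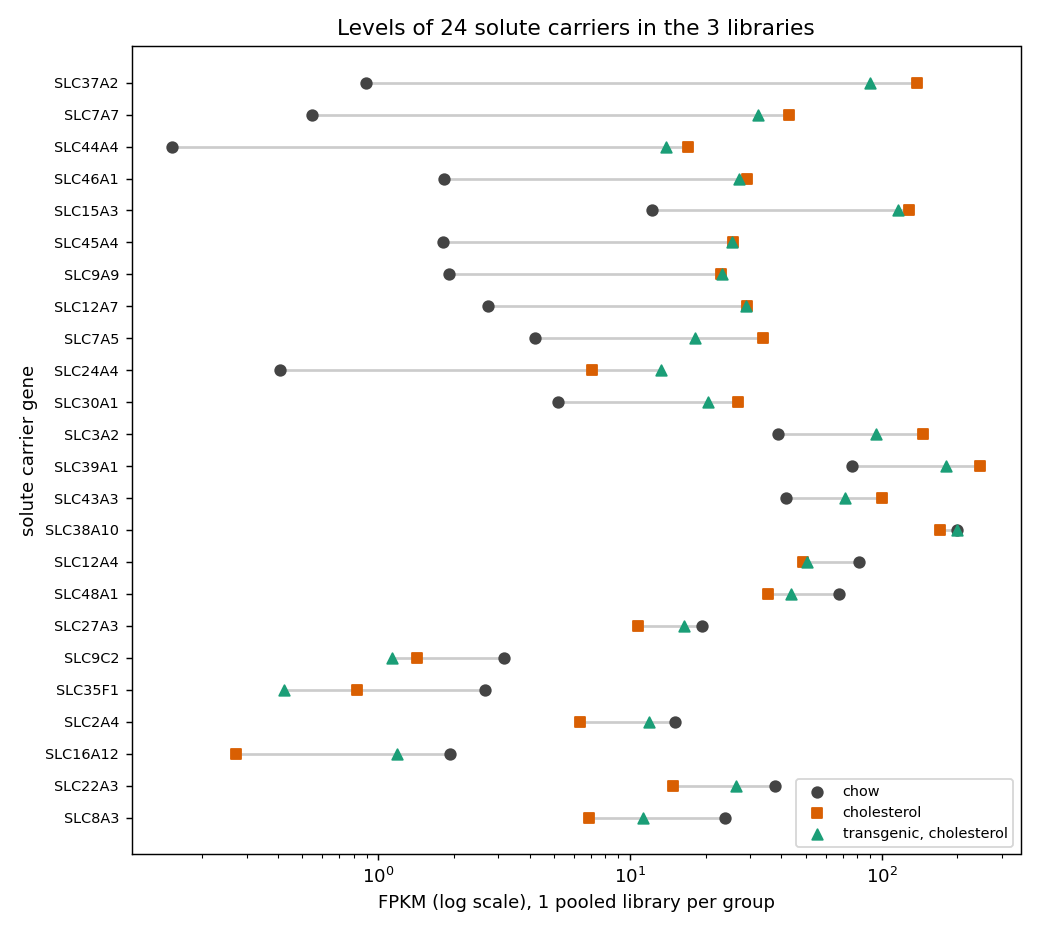
Level of 24 solute carriers in FPKM on a log axis (horizontal) in each of the 3 libraries, 1 gene per line (vertical), with grey lines spanning the libraries. SLC37A2 and SLC7A7 are below 1 FPKM on chow and at 138 and 42.8 FPKM on cholesterol, while SLC8A3, at the bottom, goes from 23.8 FPKM on chow to 6.90 on cholesterol.

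Sugar and sugar derivative carriers held the gene with the largest diet difference of all 139. SLC37A2, a phosphate-linked antiporter of sugar phosphates in the endoplasmic reticulum on chromosome 1 from 92172947 to 92199442, stood at 0.897 FPKM on chow, 138 on cholesterol and 89.8 in the transgenic library. The diet difference was 6.20 in log2(FPKM + 1), and its rank among the carriers went from 120 on chow to 4 on cholesterol. Its relatives had smaller diet differences, 1 of them past 2-fold. SLC37A1 stood at 0.267, 1.91 and 1.17 FPKM, a diet difference of 1.20. Under 2-fold were SLC37A3 at 12.3, 14.4 and 9.65 FPKM, and SLC37A4, the glucose-6-phosphate carrier mutated in a glycogen storage disease, at 7.16, 8.69 and 7.59 FPKM.

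The sugar class takes in the kept SLC35 and SLC45 members by family name, not by a substrate shown for each. Over the 31 rows of this class, 12 were at least 2-fold higher and 2 lower, with a median of 0.57 in log2(FPKM + 1). The summed level was 225 FPKM on chow, 525 on cholesterol and 419 in the transgenic library. With a pseudocount of 5, 5 were higher and 0 lower, with a median of 0.31. SLC37A2 alone made up 138 of the 525 FPKM. SLC45A4 stood at 1.80, 25.6 and 25.5 FPKM, a diet difference of 3.24, and SLC45A3 at 0.505, 3.29 and 5.21 FPKM, a diet difference of 1.51.

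Of the 19 SLC35 members, the family of the nucleotide sugar carriers of the Golgi and endoplasmic reticulum, 8 were past 2-fold upward on the diet and 1 downward, with a median of 0.63 in log2(FPKM + 1). SLC35F5 stood at 19.7, 72.5 and 46.4 FPKM, the highest level of the family on cholesterol. SLC35D3 stood at 0.0561, 2.95 and 1.92 FPKM, a diet difference of 1.90, and SLC35A4 at 7.12, 26.4 and 22.8 FPKM. SLC35A3, a carrier of UDP-N-acetylglucosamine, stood at 5.92, 14.8 and 10.3 FPKM. SLC35C1, the GDP-fucose carrier, stood at 1.66, 6.0 and 3.22 FPKM, though its row overlaps 5 other listed genes. SLC35B1, SLC35B2, SLC35B3 and SLC35A2, the last a UDP-galactose carrier, lay between 0.24 and 0.51, and SLC35B4 was at -0.55. SLC35F1 was the lower one at 2.65, 0.824 and 0.423 FPKM, a diet difference of -1.0, which fell short of 2-fold when libraries were scaled to equal sums.

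The 5 hexose carriers kept had a median diet difference of -0.19 in log2(FPKM + 1). SLC2A4 (GLUT4), the insulin-responsive glucose carrier of muscle and fat, stood at 15.1 FPKM on chow, 6.32 on cholesterol and 11.9 in the transgenic library, a diet difference of -1.14 in log2(FPKM + 1). Its row overlaps YBX2. SLC2A12 (GLUT12) stood at 5.80, 3.04 and 2.93 FPKM and SLC2A10 (GLUT10), whose loss causes arterial tortuosity syndrome, at 13.5, 11.7 and 8.57 FPKM. SLC2A8 (GLUT8) stood at 5.22, 8.21 and 9.94 FPKM. The fifth, SLC50A1, overlaps 20 other listed genes and stood at 2.78, 3.35 and 3.56 FPKM. None of the 5 passed 2-fold upward. Among 16 genes of sugar kinases and sugar phosphate handling, 3 were at least 2-fold higher and 0 lower, with a median of 0.39, a share of 18.8% that is near the 15.9% of all genes, and the largest difference was that of hexokinase HK2 at 2.72, 33.8 and 20.3 FPKM.

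Ion carriers went in both directions on cholesterol diet. Of 29, 9 were at least 2-fold higher and 1 lower, with a median of 0.37 in log2(FPKM + 1), and the summed level was 258 FPKM on chow, 350 on cholesterol and 344 in the transgenic library. The median was 0.11 with no filter, 0.23 with a pseudocount of 5 and 0.77 among rows with a mean of at least 5 FPKM. The lower one was SLC8A3 (NCX3), a sodium-calcium exchanger that removes calcium from muscle and nerve cells, at 23.8 FPKM on chow, 6.90 on cholesterol and 11.3 in the transgenic library. Its diet difference of -1.65 was the lowest of all 139 rows. SLC24A4, a potassium-dependent sodium-calcium exchanger, stood in the other direction at 0.408, 7.10 and 13.2 FPKM, a diet difference of 2.52. Its relatives SLC24A3 and SLC24A1 stood at 1.38, 0.858 and 1.14 FPKM and at 1.64, 0.929 and 0.824 FPKM. SLC8B1 (NCLX), the mitochondrial sodium-calcium exchanger, stood at 1.77, 5.54 and 6.03 FPKM and overlaps another listed gene. Of the 5 sodium-calcium exchangers, then, 2 were at least 2-fold higher and 1 lower.

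Sodium-proton exchangers regulate pH in the cytosol and in organelles, and 2 of 8 were at least 2-fold higher. SLC9A9 (NHE9), of endosomes, stood at 1.91, 23.0 and 23.2 FPKM, the largest diet difference of the ion carriers at 3.05 in log2(FPKM + 1). SLC9B2 (NHA2) stood at 9.42, 20.6 and 22.6 FPKM. SLC9C2, in a row joined with ANKRD45, was lower on the diet at 3.17, 1.43 and 1.14 FPKM, short of 2-fold.

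The cation-chloride cotransporters set cell volume and chloride. SLC12A7 (KCC4), a potassium-chloride carrier whose row lies on a short unplaced contig, stood at 2.73, 29.2 and 28.8 FPKM, a diet difference of 3.02 in log2(FPKM + 1). SLC12A4 (KCC1), the most abundant ion carrier by mean, stood at 81.1, 48.7 and 50.6 FPKM, a difference of -0.72. SLC12A2 (NKCC1) stood at 9.97, 10.9 and 12.1 FPKM, and SLC12A9 at 12.4, 29.5 and 22.6 FPKM. SLC12A4 exceeded SLC12A7 by level in every library.

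Both copper carriers were past 2-fold. SLC31A1 (CTR1), which takes copper into the cell, stood at 3.85, 15.1 and 14.7 FPKM, and SLC31A2 (CTR2) at 7.61, 34.7 and 25.5 FPKM, diet differences of 1.73 and 2.05. The sulfate carrier SLC26A2 stood at 1.49, 8.25 and 7.69 FPKM. The bicarbonate carriers SLC4A3, SLC4A4 and SLC4A7 and the magnesium carriers SLC41A1, SLC41A2 and SLC41A3 lay between -0.57 and 0.70 of chow, none past 2-fold.

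Of 22 genes of ion pumps and the kinases of cation-chloride carriers, 8 (36.4%) were at least 2-fold higher and 7 (31.8%) lower on the diet. Over all genes the shares were 15.9% and 6.99%. The list's median was -0.49 in log2(FPKM + 1). The list holds one of the 139 rows, SLC9A3R1. Its largest difference was that of carbonic anhydrase CA2 at 0.115 FPKM on chow, 14.7 on cholesterol and 8.39 in the transgenic library. Of the higher genes, CA2, SLC9A3R1 and FXYD3 were below 1 FPKM on chow. Phospholamban (PLN), the inhibitor of the calcium pump of the sarcoplasmic reticulum, named after its values were seen, stood at 1997, 564 and 936 FPKM.

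**Figure D3:**
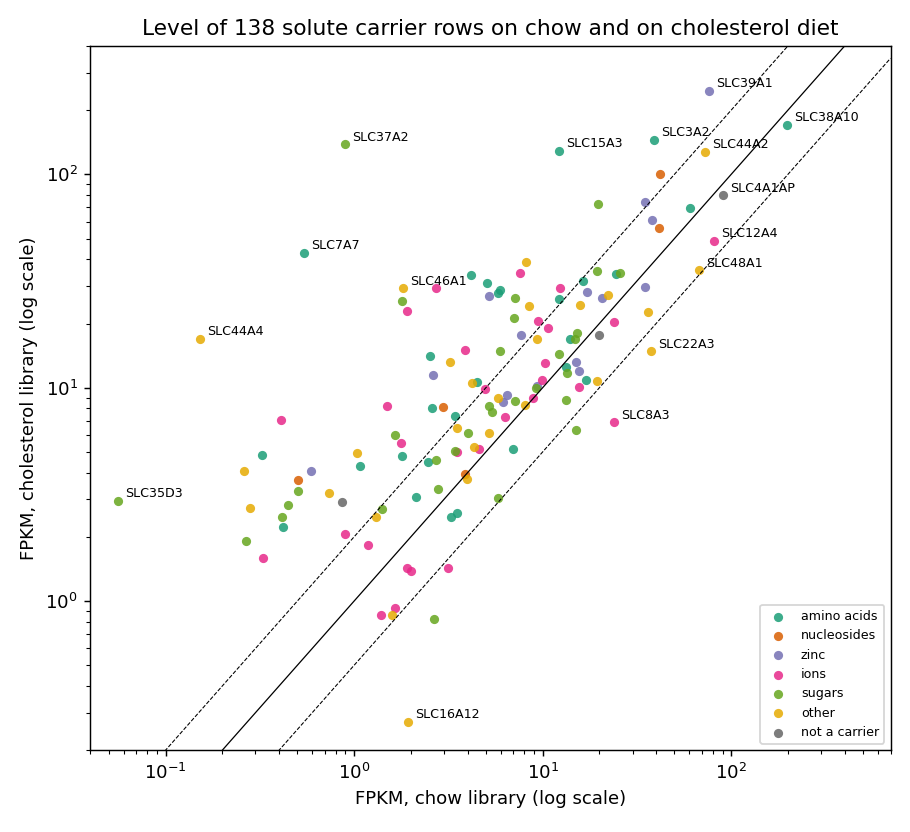
Level in the chow library (horizontal) against level in the cholesterol library (vertical), both in FPKM on log axes, for the 138 rows above 0 in both, coloured by substrate class. The solid line marks equal levels and dashed lines a ratio of 2. SLC37A2, SLC7A7 and SLC44A4 lie far above the lines from chow levels below 1 FPKM, SLC39A1 is highest on cholesterol at 246 FPKM, and SLC8A3, SLC22A3 and SLC16A12 lie below.

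The remaining 27 carriers move choline, vitamins, monocarboxylates, organic cations, fatty acids and haem. Of these, 10 were at least 2-fold higher on cholesterol diet and 2 lower, with a median of 0.61 in log2(FPKM + 1), and their summed level was 344 FPKM on chow, 470 on cholesterol and 458 in the transgenic library. Their median was 0.0930 with no filter, and with a pseudocount of 5 it was 0.43, with 5 higher and 1 lower. SLC44A4, of the choline carrier-like family, stood at 0.152 FPKM on chow, 17.0 on cholesterol and 13.9 in the transgenic library, a diet difference of 3.96. The choline carriers SLC44A1 and SLC44A2 stood at 8.18, 38.8 and 31.9 FPKM and at 72.6, 127 and 110 FPKM. SLC44A2 was the most abundant of this class.

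Among vitamin carriers, SLC46A1, the proton-coupled folate carrier, stood at 1.83, 29.3 and 27.2 FPKM, a diet difference of 3.42 in log2(FPKM + 1). The reduced folate carrier SLC19A1, whose row overlaps another listed gene, stood at 3.99, 3.72 and 5.83 FPKM. SLC46A3, of lysosomes, stood at 1.04, 4.92 and 6.47 FPKM. It was placed here by its name, not by a vitamin shown to be its substrate. SLC23A2, which takes up vitamin C, stood at 8.43, 24.2 and 19.1 FPKM. The thiamine carrier SLC19A2 stood at 1.58, 0.856 and 0.853 FPKM. Of the folate carriers, SLC19A1 was thus above SLC46A1 on chow and below it in both cholesterol diet libraries.

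The monocarboxylate family SLC16 held members in both directions. SLC16A6 stood at 0.262, 4.06 and 2.57 FPKM, SLC16A7 (MCT2), a carrier of lactate and pyruvate, at 4.22, 10.5 and 5.83 FPKM, and SLC16A13, which overlaps SLC16A11, at 0.738, 3.22 and 3.93 FPKM. SLC16A12, a creatine carrier, was lower on the diet at 1.93, 0.271 and 1.18 FPKM, a difference of -1.20 in log2(FPKM + 1).

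SLC22A3 (OCT3), which clears organic cations and monoamines, stood at 37.6 FPKM on chow, 14.8 on cholesterol and 26.5 in the transgenic library, a diet difference of -1.28. Of the fatty acid carriers, SLC27A6 stood at 3.23, 13.2 and 15.6 FPKM and SLC27A3 at 19.4, 10.8 and 16.5 FPKM. SLC48A1, which moves haem out of lysosomes, was lower on the diet but short of 2-fold at 67.7, 35.5 and 43.8 FPKM, a difference of -0.91. The carnitine carrier SLC22A5 stood at 1.30, 2.47 and 3.25 FPKM.

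Grouped by a list of organelle carriers, 8 of 15 carriers of lysosomes and endosomes were past 2-fold upward on the diet and 0 downward, with a median of 1.09 in log2(FPKM + 1). In the Golgi and endoplasmic reticulum 9 of 28 were higher and 0 lower, with a median of 0.48. Of those at the cell surface or on none of the organelle lists, 37 of 91 were higher and 5 lower, with a median of 0.67, and the mitochondrial SLC8B1 and the vesicular SLC17A9 were counted apart. All 5 rows at least 2-fold lower, SLC8A3, SLC22A3, SLC16A12, SLC2A4 and SLC35F1, thus stood in the last group.

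The genotype comparison asked how the transgenic library differed from the non-transgenic one on the same diet. Few carriers were far apart: 0 of 139 were at least 2-fold higher and 1, SLC1A3, was at least 2-fold lower, beside 1.7% higher and 2.1% lower over all 11597 genes. The median difference was -0.15 in log2(FPKM + 1) for the carriers and -0.01 for all genes. With each library scaled to the same sum the medians were -0.02 and 0.11, and with mitochondrial DNA rows left out of that sum -0.05 and 0.08, so the sign of small differences depends on the scaling and values below are on the deposited scale. With no filter on low values the carriers' median was -0.03. Against the non-transgenic library, macrophage markers had a median of -0.36, with values in both directions: C1QB (1.79) and C1QC (1.42) were past 2-fold upward, and LYZ (-2.19) and MSR1 (-1.88) downward. Contractile smooth muscle markers had a median of 0.55. The part of these shifts in the carrier values was not tested.

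**Figure D4:**
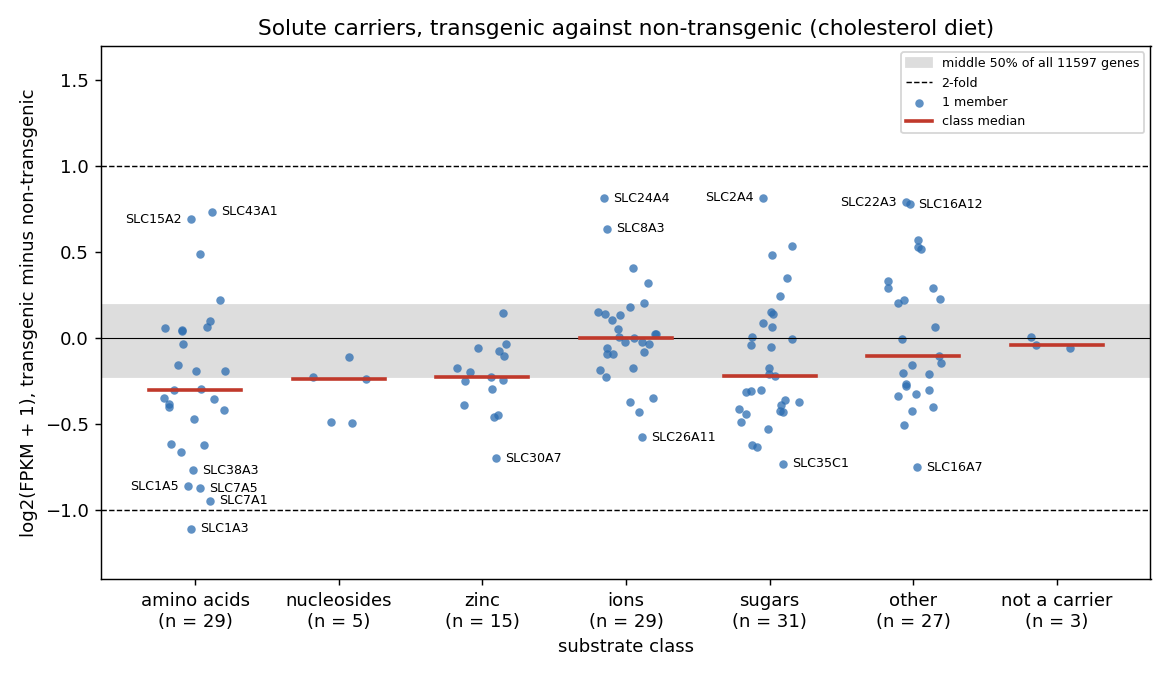
Difference in log2(FPKM + 1) between the transgenic and the non-transgenic library on cholesterol diet (vertical axis) for each of the 139 rows, by substrate class (horizontal axis), with class medians in red, the middle of all 11597 genes as a grey band and dashed lines at 2-fold. Only SLC1A3 lies past a dashed line, at -1.11, and the class medians run from -0.30 for amino acid carriers to 0.00 for ion carriers.

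Amino acid carriers held the lowest values, with a class median of -0.30 in log2(FPKM + 1), -0.05 with no filter, and a range from -1.11 to 0.74. SLC1A3, at 2.23 FPKM in the cholesterol library and 0.499 in the transgenic one, differed by -1.11, from levels close to the filter, and was short of 2-fold with a pseudocount of 5. The arginine carrier SLC7A1 (4.80 and 2.02 FPKM) differed by -0.94, SLC7A5 (33.9 and 18.1 FPKM) by -0.87, SLC1A5 (4.32 and 1.93 FPKM) by -0.86 and SLC38A3 (2.58 and 1.10 FPKM) by -0.77. SLC3A2, partner of SLC7A5, stood at 146 and 94.7 FPKM, a difference of -0.62. At the other end of the class, SLC43A1 (5.19 and 9.30 FPKM) differed by 0.74 and SLC15A2 (4.86 and 8.47 FPKM) by 0.69. In the list of amino acid stress and sensing genes, 2 of 20 were at least 2-fold lower and 0 higher, beside 2.1% and 1.7% of all genes. Those 2 were SESN2 (-1.15) and TRIB3 (-1.49), the latter a target of the stress factor ATF4. Other stress genes of the list stayed under 2-fold in both directions: ATF3 (0.67), CEBPB (0.11), DDIT3 (-0.31) and ASNS (-0.51). The list's median was -0.01.

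Outside that class, SLC16A7 at -0.75, SLC35C1 at -0.73 and SLC30A7 at -0.70 in log2(FPKM + 1) had the lowest values. The highest were those of SLC2A4 and SLC24A4, at 0.82 and 0.81, SLC22A3 at 0.79, SLC16A12 at 0.78, SLC8A3 at 0.64 and SLC27A3 at 0.57. SLC2A4 stood at 6.32 FPKM without and 11.9 with the transgene, and SLC22A3 at 14.8 and 26.5 FPKM. Class medians were -0.24 for nucleoside, -0.23 for zinc, -0.22 for sugar and 0.00 for ion carriers. For the 27 remaining carriers the median was -0.10, which turned to 0.03 with libraries scaled to the same sum. SLC37A2, highest of all by diet difference, stood at 138 and 89.8 FPKM, a genotype difference of -0.62.

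Against chow, the transgenic library had 43 of 139 carriers at least 2-fold higher and 3 at least 2-fold lower, beside 12.6% and 2.53% of all 11597 genes, and a median difference of 0.45 in log2(FPKM + 1) beside 0.01. The largest differences were 5.58 for SLC37A2, 4.43 for SLC7A7, 3.69 for SLC44A4, 3.34 for SLC24A4, 3.32 for SLC46A1, 3.24 for SLC45A4, 3.14 for SLC15A3 and 3.06 for SLC9A9. The 3 lower rows were SLC35F1 at -1.36, SLC38A3 at -1.10 and SLC8A3 at -1.01. SLC2A4 (-0.32), SLC22A3 (-0.49) and SLC16A12 (-0.42) were under 2-fold in this comparison. Those 3 genes were between the other libraries in the transgenic library, by the levels given above.

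Some rows limit what can be read. The members just inside the level of 1 FPKM were SLC1A3, SLC9A7 and SLC19A2, with means of 1.05, 1.07 and 1.10 FPKM, and those just outside were SLC38A11, SLC1A1 and SLC46A2, with 0.962, 0.955 and 0.925 FPKM. The 84 rows below it included 12 that reached 1 FPKM in some library and 2 listed at 0 in all. Of the 139, 114 reached 1 FPKM in every library. Loci of 13 rows overlap another listed gene, and 2 rows were joined with another gene's name. Without the overlapping rows, 51 carriers were past 2-fold upward on the diet and 4 downward. Of the 139, 3 rows carry an SLC name but encode no carrier: SLC4A1AP, one of the joined and overlapping rows (with NRBP1), at 90.6, 79.7 and 77.7 FPKM, SLC7A6OS at 20.0, 17.6 and 17.7 FPKM, and SLC9A3R1, a scaffold that binds carriers, at 0.867, 2.92 and 2.77 FPKM. Of the 9 glucose, lactate, iron and phosphate carriers left out of the set, 8 had a mean of at least 1 FPKM. Of those, 4 (50%) were past 2-fold upward and 1 (12.5%) downward on the diet, beside 15.9% and 6.99% of all genes. SLC16A3, among those upward, was at 0.182 FPKM on chow.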

How the data were processed

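Polyadenylated RNA of the aortic media was made into 3 libraries, each of RNA pooled from 5 rabbits. The deposited values are FPKM per gene, named as such per the file headers, and were used as the authors made them. The submitters' processing notes name the build OryCun2.0. The aligner, the counting program and its use of strand were not given in the sources used here. No genome or sequence table of that build was used here. Columns were matched to libraries by the library numbers in the labels, and 0 value columns were left unmatched.

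Differences were taken as log2(FPKM + 1), with a pseudocount of 1, over those 11597 of 15248 rabbit genes that averaged 1 FPKM or more. A row past 2-fold has a difference of at least 1. With 1 library per group there is no test, and precision between animals cannot be given. Classes and places in the cell were assigned from textbook knowledge, and the 3 rows that encode no carrier were set apart after their names were seen in the table. The members, the classes and the marker and partner lists were chosen with earlier results of these data known.

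Genes were named by a rule: per comparison, the 3 largest differences in each class and the 8 largest in each direction among rows above 0 in every library, the most abundant row of each class, rows at 0 in a library that passed 2-fold, the 3 rows on either side of the filter, and the largest diet difference of each partner list. This gave 56 SLC rows, of which 53 encode carriers. Others were added after their values were seen, as paralogues, partners or members of the same substrate group. Single values of some members are not reported here. Alternatives were another pseudocount (0.1 or 5), no filter or a mean of at least 5 FPKM, 3 other scalings of the libraries, and leaving out rows at 0, rows that encode no carrier or rows that overlap another gene. Calculations used Python 3.11.15, numpy 2.4.6, pandas 2.3.3 and matplotlib 3.10.9, and the functions were tested on simulated data.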

Additional observations from a re-analysis of the deposited data

How the results depend on the processing

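No paired analysis was possible because each group is 1 pooled library. Leaving out a library would end a comparison, so no such value is given. Of 530 values of named genes under other pseudocounts and scalings, 502 stayed on the same side of 2-fold, 20 dropped below it, 8 passed it and 0 changed sign while past it. Median-of-ratios scaling, leaving out rows at 0 and leaving out rows that encode no carrier moved no count over members or classes by over 1.5 times and no median by over 0.1. Without overlapping rows, the nucleoside medians were 0.83 on the diet and -0.36 by genotype, and 1 sugar carrier was lower on the diet. Leaving out the rows that encode no carrier and the overlapping rows were alternatives chosen after the data were seen. The cause of the shifts below was not tested, beyond what each setting does by construction. Diet here means cholesterol against chow, and medians are in log2 units.

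With a pseudocount of 5, which shrinks low genes, 29 members passed 2-fold upward on the diet and 2 downward (median 0.39), beside 9.64% and 3.56% of all genes, with 9 amino acid, 1 nucleoside, 3 zinc, 5 sugar and 5 other carriers higher, and 0 sugar and 1 other carrier lower. The diet medians were 0.62 for amino acid, 0.66 for nucleoside, 0.23 for ion, 0.31 for sugar and 0.43 for other carriers. By genotype 0 members, and 0 amino acid carriers, were lower, and against chow the transgenic library had 23 higher and 0 lower (median 0.27). With a pseudocount of 0.1, the diet medians were 0.81 for members, 1.23 for amino acid, 0.50 for ion and 0.81 for other carriers, 2 ion carriers were lower, and by genotype 1 member (an other carrier, SLC16A12, at 1.79) was higher and 4 lower, all 4 amino acid carriers.

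With no filter, the diet medians were 0.24 for members, 0.26 for amino acid, 0.42 for nucleoside, 0.46 for zinc, 0.11 for ion, 0.45 for sugar and 0.0930 for other carriers. The genotype medians were then -0.0339 for members, -0.0497 for amino acid, -0.11 for sugar and 0.0683 for other carriers, and the median against chow was 0.17. With a mean of at least 5 FPKM, 3 members were lower on the diet, 6 sugar and 6 other carriers higher, and 1 of each lower. The diet medians were 0.77 for ion and 0.43 for sugar carriers. By genotype 0 members and 0 amino acid carriers were lower, and against chow 1 member was lower.

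With libraries scaled to an equal FPKM sum, which moved the median of all genes by genotype to 0.11 and against chow to 0.18, the genotype medians were -0.0249 for members, -0.18 for amino acid, -0.11 for zinc, 0.11 for ion, -0.12 for sugar and 0.0269 for other carriers, the median against chow was 0.63, and 1 sugar carrier was lower on the diet. With mitochondrial DNA rows also left out of the sum, which moved the diet median of all genes to 0.19 and that against chow to 0.27, the diet medians were 0.83 for members, 1.23 for amino acid, 1.38 for nucleoside, 0.84 for zinc, 0.51 for ion, 0.74 for sugar and 0.79 for other carriers. Then 3 members and 0 sugar carriers were lower on the diet, the genotype medians were -0.0521 for members and 0.000415 for other carriers, and against chow the median was 0.71 and 1 member was lower. SLC35F1 and SLC2A4 were then short of 2-fold on the diet, and SLC35F1 was so with a plain equal sum too.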
